A study of Homo sapiens with 2 samples.

Results

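The data described here are the signals of 10 genes by which plasmacytoid dendritic cells (pDCs) are recognised, read in RNA of human myeloma cells. The genes are CLEC4C, LILRA4, IL3RA, NRP1, TCF4, IRF8, GZMB, LAMP5, RUNX2 and BCL11A, and every probe set that the array annotation assigns to one of them and to no other gene was taken. This gave 29 of the 54675 probe sets on the array, and 10 of 19775 genes. MM.1S, an established line of multiple myeloma, was either co-cultured with pDCs or grown without them, and total RNA was hybridised to Affymetrix HG-U133 Plus 2.0 arrays. Each group held 1 array, so no value has a replicate error, no test was possible, and "higher" and "lower" describe these arrays only. The sources used here do not give where the pDCs came from, how long the culture lasted, or whether pDCs were removed before RNA extraction.

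pDCs are dendritic cells that sense viral nucleic acids through endosomal Toll-like receptors and answer with large amounts of type I interferon. Their identity depends on TCF4 (E2-2), an E protein that binds E-box DNA and is held back by ID proteins. IRF8, RUNX2 and BCL11A act beside it as transcription factors. CLEC4C, LILRA4, IL3RA and NRP1 are the surface receptors used to sort these cells, GZMB is a granule protease that they store, and LAMP5 is a membrane protein of their endosomal compartments. Several of these genes are not private to pDCs, because plasma cells and B-lineage cells also use E proteins, IRF factors and a large secretory apparatus.

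On the array of MM.1S cells grown alone, 8 of the 10 genes had at least 1 probe set above the floor: LILRA4, NRP1, TCF4, IRF8, GZMB, LAMP5, RUNX2 and BCL11A. The floor was the median signal of the array (124.0 alone and 115.9 in co-culture), since no detection calls were in use. CLEC4C and IL3RA were below it. Across all genes, 66.8% had a probe set above the floor alone, so 8 of 10 is not far from the background. Counted by probe set, 17 of 29 (58.6%) were above the floor alone and 15 (51.7%) in co-culture, against 54.8% and 54.9% of all probe sets with 1 gene symbol. With the floor raised to the 70th percentile of each array, 5 genes stayed above it alone: TCF4, IRF8, GZMB, LAMP5 and RUNX2, against 46.9% of all genes.

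**Figure D1:**
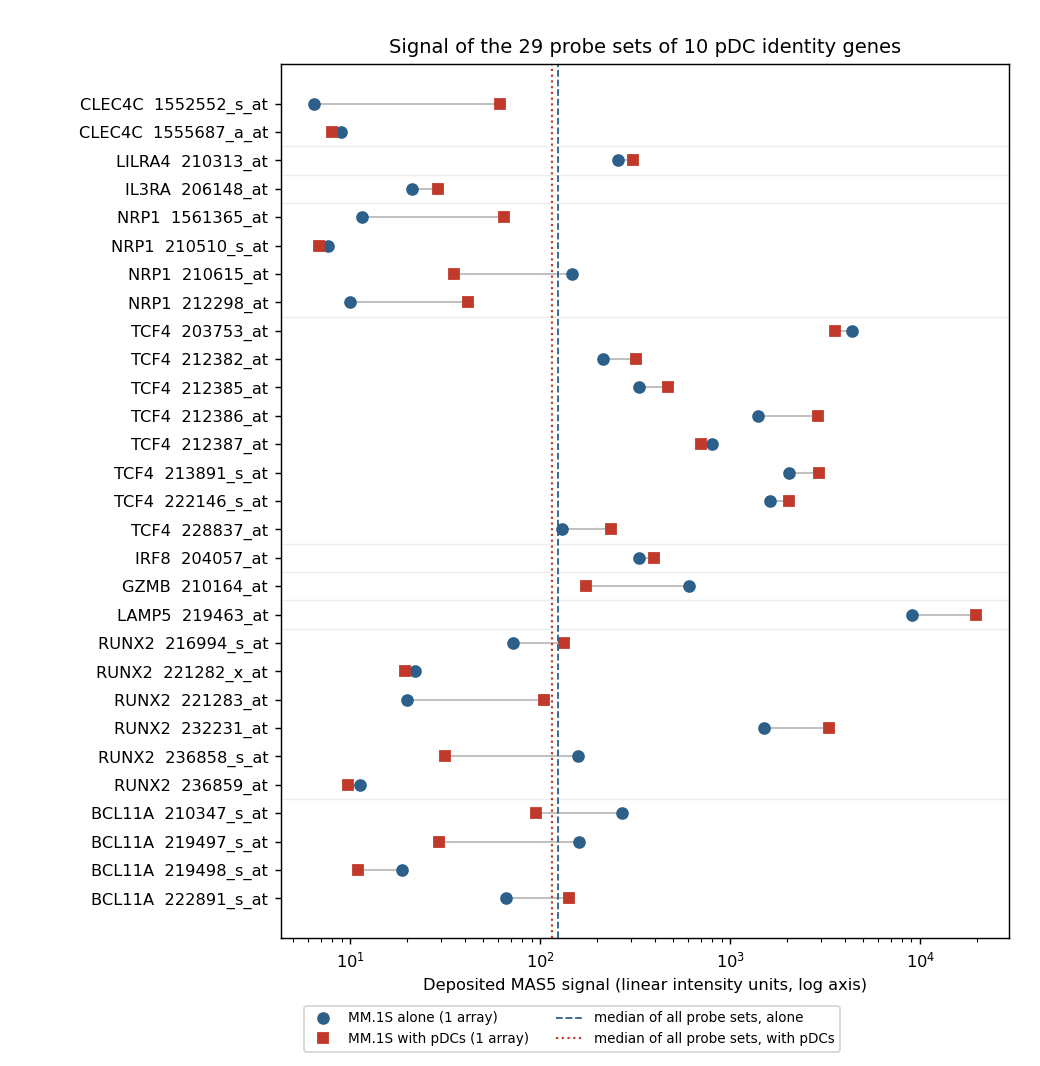
Deposited MAS5 signal (log axis, linear intensity units) of the 29 probe sets of the 10 genes on the array of MM.1S cells alone (circles) and with pDCs (squares), 1 array each; vertical lines mark the median of each array. LAMP5, RUNX2 on 1 of its 6 probe sets and TCF4 on all 8 lie to the right of both lines, as do LILRA4, IRF8 and GZMB, while CLEC4C and IL3RA lie to the left on both arrays.

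Between the arrays, LAMP5, 1 probe set of RUNX2 and 1 of TCF4 passed 2-fold on the co-culture side, and GZMB and 1 probe set of BCL11A were at least 2-fold lower. Of the 29 probe sets, 13 were above the floor on both arrays, 4 only alone, 2 only in co-culture, and 10 on neither. In bulk RNA, fewer cells of a type and less RNA per cell cannot be told apart. The 19 with a ratio split into 12 higher and 7 lower in co-culture. The 3 at least 2-fold higher make 15.8% of the 19, against 4.19% of all probe sets with a ratio, and the 2 at least 2-fold lower make 10.5%, against 4.67%. Of these 19 probe sets, 8 belong to TCF4 and are not independent of each other. The median log2 ratio (co-culture minus alone, with signals below the floor set to it) was 0.26 over the 19 and -0.02 over all probe sets with 1 symbol. Counted by gene, on the brightest probe set of each, the 8 genes with a ratio split into 4 higher and 4 lower. Their median was -0.02, against -0.04 over all genes.

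**Figure D2:**
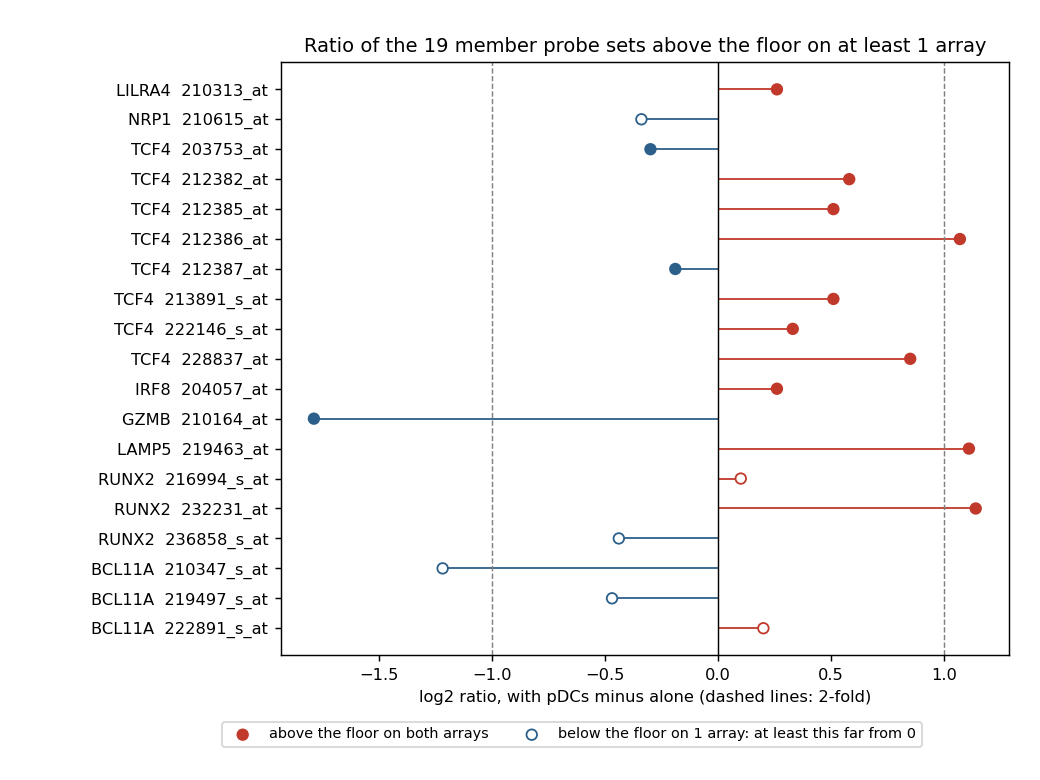
Log2 ratio (co-culture minus alone) of the 19 member probe sets above the floor on at least 1 array; open circles are bounds, where 1 array was below the floor, and dashed lines mark 2-fold. GZMB at -1.79 is the farthest from 0, and LAMP5 at 1.11 and RUNX2 at 1.14 are on the opposite side.

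Of the 10 genes, 8 were matched by symbol to RefSeq promoters (GRCh38.p14), with 23 start sites in all. The 250 bases before each start site were searched on both strands for an E-box form bound by E proteins (CAGGTG, or CACCTG on the other strand) and for a RUNX core (TGTGGT, or ACCACA on the other strand). Among 34788 distinct windows of the same length, 17.5% hold the first and 11% the second. Of the 23 member windows, 2 hold the first (CLEC4C and 1 of 2 IRF8 start sites) and 5 the second (CLEC4C, GZMB, the first RUNX2 start site, the other IRF8 start site and 1 of 5 in BCL11A). The windows of 4 members are shown, since they cover the range of the results: LAMP5 was higher in co-culture, as was RUNX2 on 1 of its 6 probe sets, GZMB was lower, and CLEC4C was below the floor on both arrays. Capitals mark matches, and each runs 5′ to 3′ on the gene's strand.
LAMP5, chr20:9514340-9514589, plus strand: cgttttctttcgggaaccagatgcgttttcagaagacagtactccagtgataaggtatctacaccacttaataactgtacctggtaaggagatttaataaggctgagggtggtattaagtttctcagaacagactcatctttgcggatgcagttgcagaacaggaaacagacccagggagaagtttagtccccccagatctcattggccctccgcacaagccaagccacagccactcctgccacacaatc
RUNX2, upstream of its first start site, chr6:45328080-45328329, plus strand: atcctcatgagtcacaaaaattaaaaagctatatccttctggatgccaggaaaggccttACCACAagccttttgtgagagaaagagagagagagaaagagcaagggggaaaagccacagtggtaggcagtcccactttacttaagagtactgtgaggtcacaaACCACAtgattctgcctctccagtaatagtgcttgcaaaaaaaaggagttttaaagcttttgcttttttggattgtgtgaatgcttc
GZMB, chr14:24634191-24634440, minus strand: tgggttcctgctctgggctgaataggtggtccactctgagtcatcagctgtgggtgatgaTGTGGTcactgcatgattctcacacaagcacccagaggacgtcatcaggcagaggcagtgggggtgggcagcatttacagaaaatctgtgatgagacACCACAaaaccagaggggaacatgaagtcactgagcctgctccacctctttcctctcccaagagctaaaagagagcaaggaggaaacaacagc
CLEC4C, chr12:7747376-7747625, minus strand: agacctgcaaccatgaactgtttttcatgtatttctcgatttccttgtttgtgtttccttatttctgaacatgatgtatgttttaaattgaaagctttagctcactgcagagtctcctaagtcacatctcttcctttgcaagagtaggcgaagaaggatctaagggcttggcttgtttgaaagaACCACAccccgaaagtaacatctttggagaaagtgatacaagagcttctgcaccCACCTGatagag
The CLEC4C window holds 1 E-box match, which begins 12 bases before the start site, and 1 RUNX match at 66 bases. GZMB and the RUNX2 window each hold 2 RUNX matches, at 190 and 93 bases and at 191 and 87 bases, and the window of the other RUNX2 start site holds neither motif. LAMP5 has no match, and neither does any of the 10 TCF4 start sites. A match describes letters and not binding, and the array measures no promoter activity.

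Of the 4 surface receptors that define pDCs, CLEC4C and IL3RA were below the floor on both arrays. CLEC4C (BDCA-2), the C-type lectin found almost solely on pDCs, had 61.4 in co-culture and 6.43 alone on probe set 1552552_s_at, and 7.97 and 8.90 on 1555687_a_at. No ratio is given for these 4 signals. The co-culture signal of 61.4 was also below 71.2, the highest of 27 bacterial control probe sets on that array. IL3RA (CD123), the alpha chain of the interleukin-3 receptor, had 29.0 in co-culture and 21.1 alone on its single probe set. Its signalling partner CSF2RB, the beta chain shared by the receptors for interleukin-3, interleukin-5 and GM-CSF, was above the floor with 4624 in co-culture and 4271 alone (log2 ratio 0.11).

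LILRA4 (ILT7), the inhibitory receptor of pDCs that pairs with the FCER1G chain, was the surface member above the floor on both arrays. Its single probe set had 306 in co-culture and 256 alone, a log2 ratio of 0.26. Those signals stood at percentile 71.2 and 67.8 of all signals on their arrays, a place that also depends on how well each probe set binds. FCER1G, through which LILRA4 and CLEC4C both signal, had 398 against 292 (log2 ratio 0.45) on its brighter probe set. The other FCER1G probe set had 234 in co-culture and was below the floor alone, a ratio of at least 0.92.

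NRP1 (BDCA-4), a co-receptor for semaphorins and VEGF, was above the floor on 1 of its 4 probe sets, and only in MM.1S cells alone. Probe set 210615_at had 146 alone and 35.0 in co-culture, which makes it at least 1.26-fold lower. That signal of 146 was just below the highest bacterial control on the same array (147.2), so NRP1 drops out of the genes above background by that measure. The remaining 3 were below the floor on both arrays, with 64.3 against 11.5 on 1561365_at, 41.6 against 9.97 on 212298_at and 6.88 against 7.64 on 210510_s_at. No ratio was read at these levels.

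LAMP5 (BAD-LAMP), a relative of the lysosomal membrane proteins that has a role in Toll-like receptor 9 traffic in pDCs, had a high signal in MM.1S cells alone and a higher one in co-culture. Its single probe set read 19601 with pDCs and 9053 alone, a 2.17-fold difference (log2 ratio 1.11). These signals stood at percentile 99.2 and 98.0 of their arrays. Among the 6400 probe sets with 1000 or more on both arrays, 1.2% reached 2-fold on the co-culture side and 1.09% on the other. Its relative LAMP2, a structural protein of lysosomes, was higher in co-culture on all 4 of its probe sets, with log2 ratios from 0.22 to 0.77. LAMP1, also of the lysosomal membrane, was higher on all 4 of its probe sets too: 20739 against 18727 (0.15), 7839 against 6513 (0.27), 540.1 against 218 (1.31) and 601 against 149 (2.01). LAMP3 had -0.33 on its single probe set.

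GZMB (granzyme B), a serine protease of cytotoxic granules that pDCs also secrete, had the largest measured ratio on the lower side. Its single probe set had 174 in co-culture and 604 alone, which is 3.47-fold lower with a log2 ratio of -1.79. Both signals were above the floor. Among probe sets with a geometric mean signal under 1000, 5.87% were at least 2-fold lower and 5.05% at least 2-fold higher, so differences of 2-fold or more were more common there than among bright ones. Perforin (PRF1), which opens the way for granzymes into target cells, was on the opposite side on 1 probe set, with 299.8 against 124.4 (2.41-fold higher). That signal alone was just above the floor of 124.0 and below the highest bacterial control (147.2). The other PRF1 probe set was below the floor on both arrays (26.7 against 15.9). Of the other granzymes, GZMH had 155 against 171 (log2 ratio -0.14). GZMM was below the floor in co-culture (30.8) and had 147.6 alone, so it was also lower. GZMA and GZMK were below the floor on both arrays. The granzyme B inhibitor SERPINB9 had 242 against 244 on its brightest probe set.

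**Figure D3:**
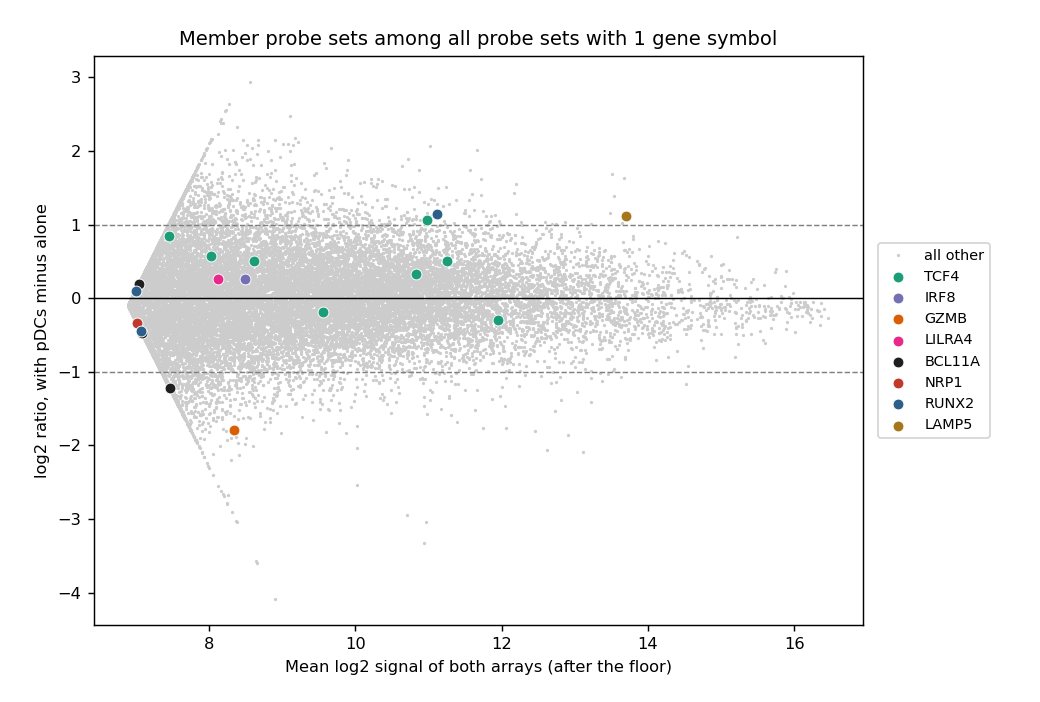
Log2 ratio (co-culture minus alone) against the mean log2 signal of both arrays, after the floor, for all probe sets with 1 gene symbol that were above the floor on at least 1 array (grey) and for member probe sets (coloured by gene). LAMP5 lies at a ratio of 1.11 where few probe sets pass 2-fold, whereas GZMB at -1.79 and BCL11A lie where the grey points spread most.

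TCF4, the E protein that sets pDC identity, was the member with the most complete reading: all 8 of its probe sets were above the floor on both arrays. In 6 the co-culture signal was higher, and in 2 it was lower. Probe set 212386_at had 2915 in co-culture against 1392 alone (2.09-fold), the only one past 2-fold. Next came 228837_at with 235 against 130, 212382_at with 318 against 214, 213891_s_at with 2919 against 2048, 212385_at with 469.6 against 329.8, and 222146_s_at with 2043 against 1629.5.

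The 2 TCF4 probe sets on the lower side were 203753_at, with 3569 in co-culture against 4400.4 alone, and 212387_at, with 705 against 806. The probe set with the highest mean signal, 203753_at, thus gave -0.30, while the mean over all 8 gave 0.42 and the median 0.51. The ratios had an SD of 0.47 among the 8 and a range of 1.37. In the 4844 genes read by 2 or more such probe sets, the pooled SD of single probe sets within a gene was 0.477. The 5 genes with 8 such probe sets, TCF4 among them, had ranges from 0.51 to 2.38.

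Among partners of TCF4, ID2 was about 2-fold higher on both of its probe sets. ID2, which binds E proteins and keeps them off DNA, had 2642 in co-culture against 1248 alone (2.12-fold higher) on one probe set and 599 against 298 (2.01-fold) on the other, of the x_at class. The latter came to just under 2-fold after quantile normalization or loess. ID3 was below the floor on both arrays. The E protein TCF12 was higher on both of its probe sets with a ratio (0.31 and 0.74). TCF3 (E2A), the E protein of B-lineage cells, was above the floor on at least 1 array on 12 of 14 probe sets, of which 4 were higher and 8 lower, from -1.06 to 0.79.

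RUNX2, a factor known for bone formation that in pDCs supports their exit from the marrow, gave readings that depended on the probe set. On 232231_at the signal was 3309 in co-culture and 1499 alone, 2.21-fold higher (log2 ratio 1.14). None of the other 5 was above the floor on both arrays. Probe set 216994_s_at had 133 against 71.6 (at least 1.07-fold higher) and 236858_s_at had 31.3 against 158 (at least 1.36-fold lower). The remaining 3 were below the floor on both, with 105 against 19.9 on 221283_at, 19.4 against 21.9 on 221282_x_at and 9.78 against 11.3 on 236859_at. The mean over the 3 probe sets with a ratio was 0.27. CBFB, the subunit that all RUNX factors bind, was 1.52-fold higher on its brighter probe set (5943 against 3919.7), and RUNX3 was lower on all 3 of its probe sets, from -1.44 to -0.07.

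**Figure D4:**
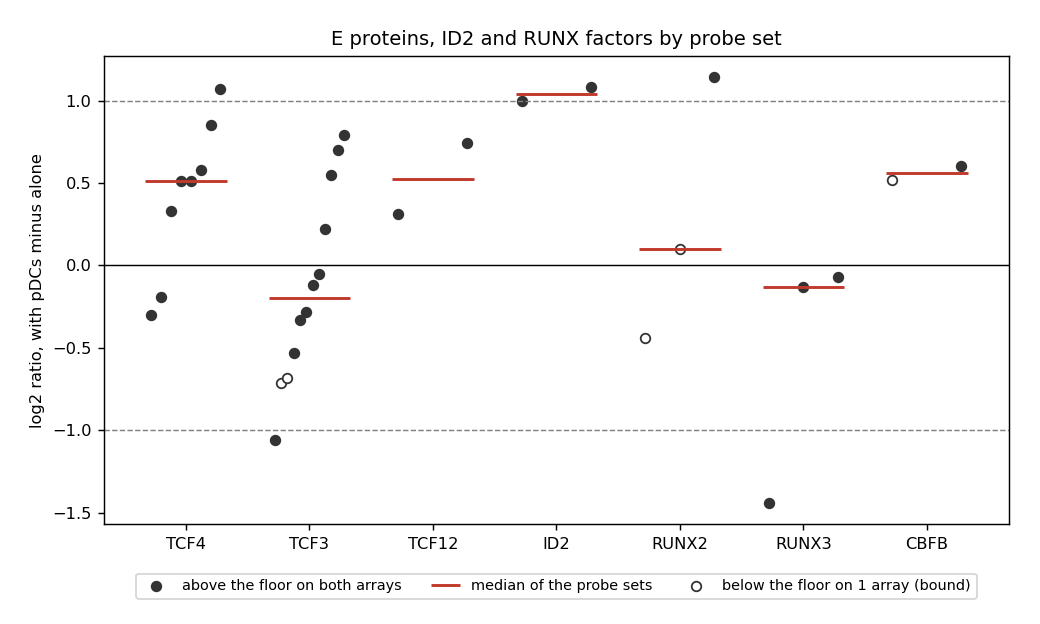
Log2 ratio (co-culture minus alone) of each probe set with a ratio for TCF4, the E proteins TCF3 and TCF12, the inhibitor ID2, and RUNX2, RUNX3 and CBFB; open circles are bounds and red lines are medians over probe sets. The 8 TCF4 probe sets run from -0.30 to 1.07, TCF3 spreads on both sides of 0, and both ID2 probe sets lie near 1.

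IRF8, an interferon regulatory factor needed for dendritic cell development and also present in B cells, had 396 in co-culture and 330 alone on its single probe set (log2 ratio 0.26). Both signals were above the floor and above the 70th percentile of their arrays. IRF4, its relative and the factor on which plasma and myeloma cells depend, had 11634 against 11111 (0.07). SPI1, a partner of IRF8 in myeloid cells, was below the floor in co-culture (59.5) and had 137 alone.

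BCL11A, a zinc finger transcription factor of B-lineage and pDC development, was above the floor on both arrays on none of its 4 probe sets. Probe set 210347_s_at had 269 alone and 94.6 in co-culture, at least 2.32-fold lower, and 219497_s_at had 161 and 29.1, at least 1.39-fold lower. On 222891_s_at the order was the other way, with 142 in co-culture and 65.9 alone (at least 1.15-fold higher), and 219498_s_at was below the floor on both (10.9 and 18.7). All 4 are of the s_at class, which can bind several transcripts, and each of the 3 ratios is a bound. The probe sets of BCL11A therefore gave both directions, with a mean of -0.50 over the 3.

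Further pDC genes were read in lists chosen for their role, against 65.8% of all genes above the floor alone and 65.3% in co-culture on their brightest probe set. Of 13 measured transcription regulators of pDCs, 10 were above the floor alone and 9 in co-culture, and ID2 was the only one past 2-fold on its brightest probe set. Among 14 genes of nucleic acid sensing, 12 were above the floor alone and 13 in co-culture. On their brightest probe sets, 7 were higher and 7 lower in co-culture. None was 2-fold higher there, against 3.16% of all genes, and 3 (21.4%) were 2-fold lower, against 4.51% of all genes. The 3 were TLR9, the sensor of unmethylated DNA (below the floor in co-culture, at least 2.24-fold), TRAF6, a ubiquitin ligase of the pathway (3.10-fold, but 1.19-fold on its other probe set), and PACSIN1 (2.32-fold). TLR7, the sensor of single-stranded RNA, had 213 in co-culture and was below the floor alone on 1 of its 2 probe sets. The other was below the floor on both arrays (11.8 in co-culture and 54.9 alone).

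Of 12 other surface receptors, 8 were above the floor on each array, and on the brightest probe sets EPHB1 alone was past 2-fold (2.30-fold lower). The second probe set of CXCR3, a chemokine receptor, was 2.57-fold higher (322 against 125), with 1.21-fold on its brightest. Of 22 secretory and other marker genes, 19 were above the floor alone and 18 in co-culture, with 6 higher and 15 lower among the 21 with a ratio. SCN9A, a sodium channel, was at least 2.41-fold higher, and MAP1A, a microtubule protein, at least 2.37-fold lower. The other SCN9A probe set was below the floor on both arrays (83.7 in co-culture and 100.5 alone). Across all genes, the shares past 2-fold were 3.16% on the co-culture side and 4.51% on the other. Of 15 type I interferon genes, the main product of active pDCs, 2 were above the floor alone and 4 in co-culture, with 0 past 2-fold. The 4 with a ratio split into 2 higher and 2 lower. IFNA17 (455.5 in co-culture and 601 alone) and IFNA7 (139 and 155) were above the floor on both arrays and lower in co-culture. IFNA5 and IFNA14 passed the floor only in co-culture, with bounds of 0.29 and 0.14. IFNB1 had 13.3 in co-culture and 8.41 alone.

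Markers of other cells give the setting of these values. All 10 plasma cell markers were above the floor alone and 9 in co-culture, CD27 being the exception, with a summed signal of 160139.5 alone and 138142 in co-culture. Of 9 monocyte markers, 5 were above the floor alone and 3 in co-culture (summed 1636 and 620.6), with LYZ at 711 and 17.0 and CD14 at 139 and 26.9. The other LYZ probe set was below the floor on both arrays (114 and 74.0). The CD14 signal alone was below the highest bacterial control on that array (147.2). FCN1 (62.6 alone and 123 in co-culture) and CSF1R (123 and 121) passed the floor only in co-culture. The 6 NK cell markers summed to 1095.5 alone and 918 in co-culture, with NKG7 and GNLY, whose cells also carry GZMB, below the floor on both arrays. The other 4 were above it on both, on their brightest probe sets. Of these, NCAM1 was higher in co-culture (396 alone and 478 in co-culture). KLRD1 (191 and 147.5), KLRF1 (240 and 124) and NCR1 (194 and 124) were lower. The summed T cell markers were 5011 alone and 6596 in co-culture, most of it CD28 (3582 and 4807) and TRAT1 (630.1 and 1265). CD3G was also higher in co-culture (124.3 alone, just above the floor, and 150 in co-culture). CD5 (222 and 175) and CD6 (235 and 60.6) were lower, CD6 at least 2.02-fold. CD2, CD3D, CD3E, LCK and CD8A were below the floor on both arrays. Conventional dendritic cell markers summed to 10675 and 14638, with CADM1 at 9759 and 13779 and CD1C and CLEC10A below the floor on both. XCR1 passed the floor only in co-culture (66.0 alone and 252 in co-culture, at least 2.04-fold higher), and CD1A only alone (211 and 67.4). BATF3 and FCER1A were above the floor on both arrays and lower in co-culture on their brightest probe sets. Of 7 B cell markers, 6 were above the floor alone and 5 in co-culture (summed 2231 and 1822.5), and of 6 platelet markers 3 on each array (1671 and 697), with PPBP at 957 alone and 30.6 in co-culture. Of the 4 platelet markers with a ratio, 3 were lower in co-culture and 1 higher, TUBB1 (19.7 alone and 205 in co-culture). PF4 and GP9 were below the floor on both arrays. Of 4 erythroid markers, 2 were above the floor alone and 1 in co-culture. No signal on either array was listed at 0. The arrays also differed in the ratio of 3′ to 5′ signal of ACTB, a measure of RNA quality, at 8.09 in co-culture and 19.5 alone (GAPDH: 2.46 and 3.07). The part of RNA quality and of other cells in the differences above was not tested.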

How the data were processed

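MM.1S RNA was measured on 1 array with pDCs and 1 without, grouped by the sample titles. The authors deposited linear intensity values for each probe set. Per the submitters' processing notes they come from MAS5, with no version, background step or detection call stated in the sources used here. Both arrays have a mean of 500.1 after trimming 2% at each end, which hides any shift that most transcripts share.

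Of 54675 probe sets, 41091 had 1 gene symbol in the platform annotation, 1801 several and 11721 none, and 62 were controls. Gene identifiers of all 29 member probe sets matched RefSeq. Signals below the median of an array were set to it; a probe set below it on 1 array has a bound, and on both no ratio. A difference of 2-fold was a threshold of size. Every member probe set is reported. Genes of the lists were read on their brightest probe set (mean log2 signal). From each list those past 2-fold were named, with a selection of others. Of the genes that pair with a member, some but not all were named. Lists overlap. The members and lists were chosen with earlier results of these data known. Alternatives were floors at the 30th and 70th percentile, at the highest bacterial control or none, median centring, quantile normalization, loess (span 0.3), thresholds of 1.5-fold and 3-fold, no x_at and s_at probe sets, and the mean over probe sets. The scalings of list genes were added after seeing the data. Calculations used Python 3.11.15, numpy 2.4.6, pandas 2.3.3, statsmodels 0.14.6 and matplotlib 3.10.9, and were tested on simulated data.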

Additional observations from a re-analysis of the deposited data

How the results depend on the processing

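No member probe set with a ratio changed sign under median centring, quantile normalization, loess or another floor, in 107 comparisons with the values as deposited. The counts moved mainly with the floor. At the 70th percentile, 10 member probe sets and 5 member genes were above it alone, and 1 probe set was at least 2-fold lower, since the BCL11A probe set then had no ratio; GZMB had -1.09. At the 30th percentile 5 probe sets were at least 2-fold higher and 5 lower, and with no floor 8 and 5. With a threshold of 3-fold, 0 were higher and 1 lower. Without x_at and s_at probe sets 1 was lower. The other member counts stayed within 1.5 times. Averaging a gene's probe sets turned TCF4 from -0.30 to 0.42 and moved RUNX2 to 0.27 and BCL11A to -0.50. Which array a probe set near background favours is limited by its signal, and 1 array per group allowed no left-out replicate. No paired analysis was possible because each group has 1 array.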

Other observations

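Among relatives of LILRA4 in the leukocyte immunoglobulin-like receptor family, LILRB1 and LILRB3 were past 2-fold. LILRB1, an inhibitory receptor for HLA class I molecules, had 928 in co-culture against 2209 alone on its brighter probe set (2.38-fold lower) and 809.7 against 2079.9 on the other (2.57-fold lower). LILRB3, another inhibitory member, was lower on all 4 of its probe sets, 3 of them at least 2-fold, with log2 ratios from -1.32 to -0.63. All 6 of these probe sets are of the x_at class, which can bind transcripts of related genes, so the signals cannot be assigned to a single receptor. LILRA5 had 351 against 294 on the one probe set above the floor, and LILRA6 had 150.5 against 195. LILRA2 and LILRB2 each passed the floor on 1 probe set, in co-culture only (165 on each), and LILRA1, LILRA3 and LILRB5 were below the floor on both arrays. Of 9 measured relatives, 4 were above the floor alone and 5 in co-culture on their brightest probe set (44.4% and 55.6%, against 65.8% and 65.3% of all genes).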
